A study of Mus musculus with 22 samples.

Results

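The 35 genes described here encode the machinery of macroautophagy, mitophagy and the lysosome: the initiation complex, the lipid kinase complex, the ATG8 conjugation enzymes, the ATG8 proteins, cargo receptors, the MiT/TFE transcription factors, and lysosomal membrane proteins, hydrolases and fusion factors. They were chosen by name, and all 35 were found among the 30735 genes of the deposited tables. The samples were left ventricles of FVB mice, 3 to 5 months old, either wild type (WT) or transgenic for VCP (VCP TG). The product of Vcp, the ATPase valosin-containing protein, unfolds ubiquitinated proteins and has roles in autophagosome maturation and in the removal of damaged mitochondria and lysosomes. Transverse aortic constriction (TAC), in which the aortic arch is narrowed by surgery, put the left ventricle under pressure overload, and a sham operation was the control. The question was how VCP TG and WT hearts differ under pressure overload.

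The table of 2 weeks after surgery holds 4 libraries of WT sham, 4 of VCP TG sham, 4 of WT under TAC and 3 of VCP TG under TAC. The table of 5 weeks holds 4 libraries of WT and 3 of VCP TG, all under TAC, and sham hearts at 5 weeks were not analysed here. The promoter that drives the transgene, the number of founder lines and the sex of the animals are not given in the sources used here. Neither is it given that each library came from a separate animal, so the p-values speak only of the variation among the libraries, which may be technical.

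In macroautophagy, the ULK1 kinase complex and vesicles carrying ATG9 start a cup-shaped membrane, the class III phosphatidylinositol 3-kinase complex marks it with a lipid, and ATG8 proteins are attached to it by a pair of ubiquitin-like conjugation systems. Receptors bind both cargo and ATG8, and the closed autophagosome fuses with a lysosome, whose acid hydrolases break the cargo down. Cardiomyocytes do not divide readily and depend on this route to renew proteins and mitochondria. Inherited loss of LAMP2 or of the hydrolase GAA causes storage disease of the heart muscle.

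Values are transcripts per 1000000 (TPM), which are scaled by transcript length and can therefore be compared between genes. TPM in each library sum to a fixed total, and 27.9% to 72.9% of it came from mitochondrially encoded genes. The read depth is unknown, so counting error cannot be given. Vcp checks the genotype labels: it ranged from 45.7 to 82.6 TPM in WT sham, 73.5 to 186 in VCP TG sham, 47.7 to 119 in WT 2 weeks TAC, 125 to 151 in VCP TG 2 weeks TAC, 47.7 to 123 in WT 5 weeks TAC and 39.1 to 118 in VCP TG 5 weeks TAC. In TPM as deposited it separated the genotypes at 2 weeks TAC but overlapped between them in sham hearts and at 5 weeks. Rescaling to nuclear protein-coding genes changed this. Vcp then separated the sham groups, at 162 to 204 in WT and 215 to 512 in VCP TG. It then overlapped at 2 weeks TAC, where WT 2 weeks TAC 1 (345) lay within the VCP TG range of 259 to 355, and still at 5 weeks. The library labelled WT 2 weeks TAC 1, with 119 TPM, lay nearer to the VCP TG values than to the other WT TAC libraries, and group names below are those of the labels. Where no time is given, TAC below means 2 weeks of TAC. All 8 cardiomyocyte markers reached 1 TPM in every group, and their summed level was 15126 to 31955 TPM. Atrial markers, which should be low in a ventricle, summed to 16.6 to 10611 TPM and were highest in a library of VCP TG sham.

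In WT sham hearts the 35 genes together took 1478 ± 182 TPM (SD, n = 4). The highest was Sqstm1, the receptor p62, at 166 ± 20.6 TPM, followed by the protease gene Ctsd at 157 ± 20.1, Rab7, a small GTPase of late endosomes, at 134 ± 10.8, Pink1, the kinase that marks damaged mitochondria, at 111 ± 14.9, and the ATG8 gene Map1lc3a at 107 ± 17.8 (SD, n = 4). The lowest were Vps18, a tethering subunit for fusion, at 2.02 ± 0.530 TPM, Atg14, which directs the lipid kinase to the forming membrane, at 2.49 ± 0.813, Atg5 at 3.92 ± 1.71 and Pik3c3, the lipid kinase itself, at 4.14 ± 1.14. Neighbours in this order overlapped in range throughout, except that every Atg7 value lay above every Pik3c3 value. The 10 highest genes were all ATG8 genes, cargo receptor or mitophagy genes, or genes of the lysosome and its fusion, and 8 of the 10 lowest encode proteins that build the autophagosome, the others being Tfe3 and Vps18. All 35 genes reached 1 TPM in at least 21 of the 22 libraries and entered every test.

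In WT hearts, 4 of the 35 genes fell at 2 weeks of TAC and 0 rose. They were Ulk1, Atg13 and Atg9a, the 3 genes of initiation among the 35, and Atg4b, the protease that trims ATG8 proteins before and after conjugation. Their levels dropped to between 0.496 and 0.611 of the sham level on the TPM + 1 scale. This is 11.4% of the genes, where 6.31% of all 13709 genes tested fell. Tests were made with limma on log2(TPM + 1), and a gene passed at a Benjamini-Hochberg adjusted p under 0.05, with adjustment across every gene tested. The call rests on a fit of the WT sham and WT TAC libraries alone: with the 4 groups of the 2-week table sharing 1 estimate of the spread, 0 of 15540 genes passed, and the adjusted p of these 4 genes was 0.323 to 0.402. In that fit the wide spread of VCP TG sham libraries enters every comparison. The median log2 difference of the 35 genes was -0.32, beside -0.16 for all genes tested. After correction for the GC content of the transcripts these medians were 0.02 and -0.00411, so the lower median of the 35 genes did not hold under that treatment.

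Atg13 (ENSMUSG00000027244, GRCm38 chr2:91674618-91710576, minus strand) encodes the adaptor that holds the ULK1 kinase complex together. It measured 23.3, 27.1, 35.4 and 31.1 TPM in the 4 WT sham libraries and 14.6, 14.2, 13.5 and 15.4 TPM in the 4 WT TAC libraries. All TAC values lay below all sham values and close to each other. The log2 difference was -0.96 ± 0.16 (SE), with an adjusted p of 0.0149 from limma. Ulk1 (ENSMUSG00000029512, chr5:110784488-110810097, minus strand), the kinase that starts the process, measured 15.5, 22.1, 18.9 and 15.8 TPM in WT sham and 8.88, 11.7, 8.91 and 13.3 TPM in WT TAC, a log2 difference of -0.71 ± 0.18 (adjusted p 0.0425). The groups did not overlap, and WT TAC 1 and 3 were lowest.

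Atg9a (ENSMUSG00000033124, chr1:75180860-75192196, minus strand) encodes the membrane-spanning scramblase of the vesicles that seed the autophagosome. It measured 11.4, 11.8, 13.9 and 8.41 TPM in WT sham and 5.84, 5.25, 5.05 and 6.94 TPM in WT TAC. The log2 difference was -0.86 ± 0.18 (adjusted p 0.0255), and the lowest sham value, in WT sham 4, was above the highest TAC value. Atg4b (ENSMUSG00000026280, chr1:93751500-93790610, plus strand) measured 10.5, 13.4, 17.2 and 13.9 TPM in WT sham and 7.03, 6.99, 5.28 and 5.72 TPM in WT TAC, with a log2 difference of -1.01 ± 0.18 (adjusted p 0.0162). Again no TAC library reached the sham range.

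**Figure D1:**
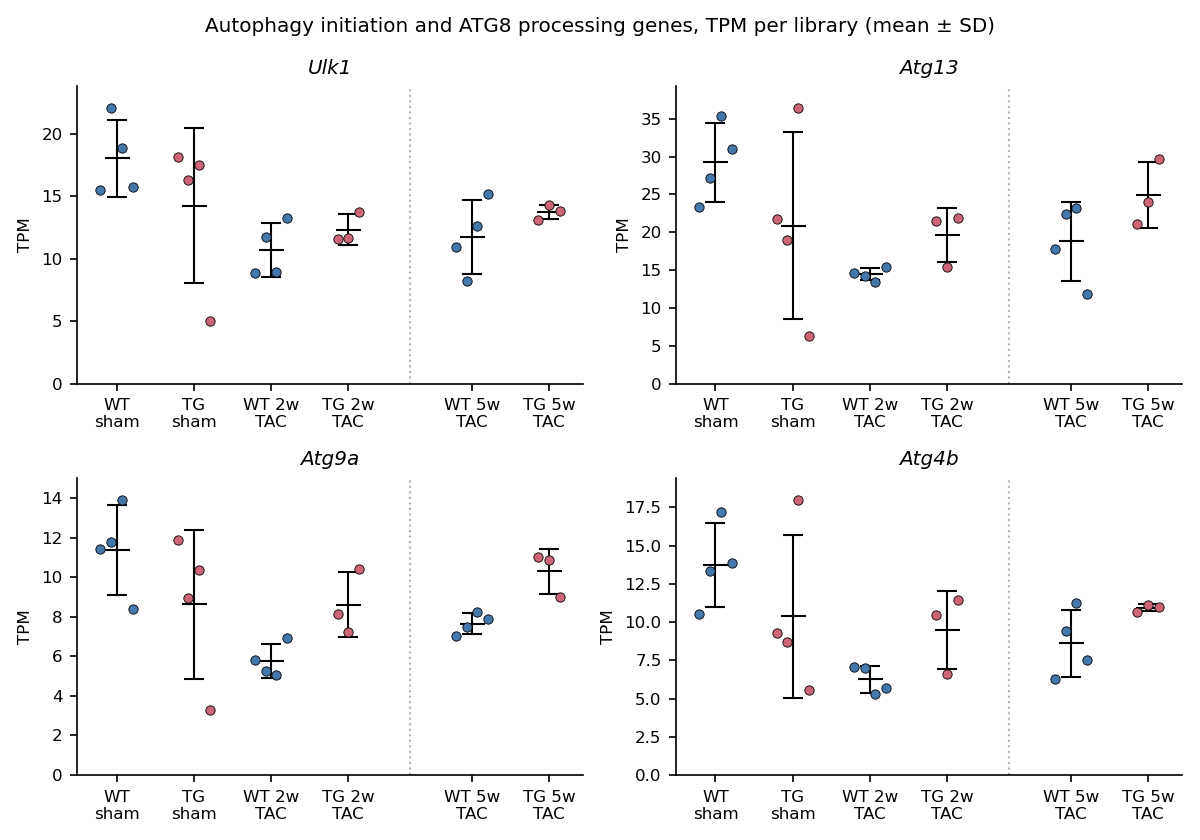
TPM (vertical axis, linear) of Ulk1, Atg13, Atg9a and Atg4b in each library of the 6 groups, with the 2-week table left and the 5-week table right of the dotted line; points are libraries, bars are mean ± SD (n = 4, or 3 for VCP TG under TAC). In all 4 genes the WT 2 weeks TAC points lie below the WT sham points, while VCP TG sham spans a wider range than either.

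These 4 calls depended on how the values were treated. After correction for the GC content of the transcripts none passed: the log2 difference became -0.84 for Atg4b (adjusted p 0.0558), -0.69 for Atg13 (0.0743), -0.51 for Atg9a (0.0766) and -0.31 for Ulk1 (0.253). Of the 35 genes, 25 had a difference below 0 as deposited, 16 after GC correction, 20 after quantile normalization and 25 after rescaling to nuclear protein-coding genes. Across 13531 genes, the log2 difference between WT TAC and WT sham correlated with GC content at r = -0.37, and across the 35 genes at r = -0.53, within the same 8 libraries. With the genes split into 5 classes of equal size by GC content, those called lower made up 0.887% of the class with the lowest GC content and 16.6% of that with the highest. Of the 4, Ulk1 (58.0% GC) and Atg9a (56.0%) lie in the highest class, Atg13 (52.8%) in the next and Atg4b (49.5%) in the middle one. Without WT sham 3 and without WT TAC 3, 0 of the 35 genes passed, and without WT sham 4 there were 10. The number of all genes called moved too, from 49 to 2148 with single libraries left out, beside 964 in the main fit. Without WT TAC 2 there were 2, Atg13 and Atg4b. Without WT TAC 1, whose Vcp level and atrial transcripts stand apart, Atg13, Atg9a and Atg4b passed and Ulk1 did not.

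**Figure D2:**
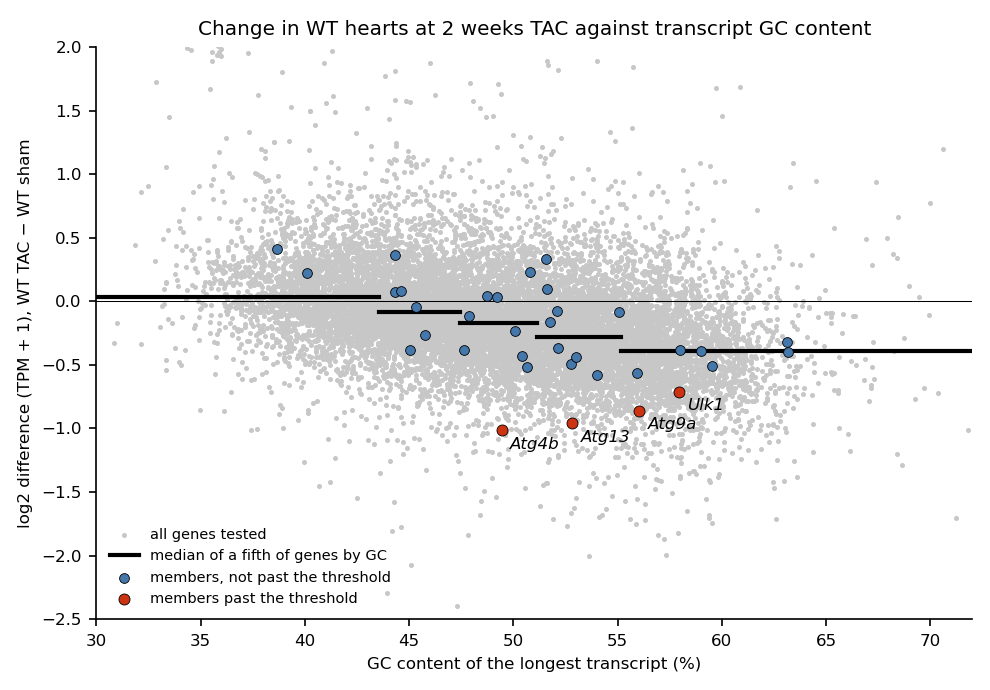
Log2 difference between WT 2 weeks TAC and WT sham (vertical axis, TPM + 1) against the GC content of the longest transcript in percent (horizontal axis); grey points are all genes tested, of which 40 of 13531 lie outside the axes, coloured points are the 35 genes, and black bars are medians of 5 classes of equal size. The medians run from 0.04 in the lowest class to -0.39 in the highest, and Atg4b, Atg13, Atg9a and Ulk1 lie below the bar of their own class.

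Scaling moved the centre of this comparison. Quantile normalization brought the median of all genes from -0.16 to 0.00, with 324 genes higher and 311 lower in place of 99 and 865. Under it Atg13, Atg9a and Atg4b still fell, by 0.76, 0.65 and 0.80 on the log2 scale, together with Ctsd, while Map1lc3b (0.46) and Lamp2 (0.54) rose and Ulk1 (-0.50) missed the threshold. Measured against the median of all genes, the differences without that step were -0.85 for Atg4b, -0.79 for Atg13, -0.70 for Atg9a and -0.55 for Ulk1. Rescaling TPM to nuclear protein-coding genes gave 9 calls: those 4, Sqstm1, Pink1, Ctsd and Gaa lower, and Lamp2 higher. The medians were then -0.30 for the 35 genes and -0.14 for all genes. The share of all genes called under this rescaling is not given here, so the 9 calls have no background beside them.

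Cell type markers moved in the same comparison. The 8 cardiomyocyte markers summed to 21721 to 29222 TPM in WT sham and 17210 to 22137 in WT TAC. The 7 endothelial markers summed to 263 to 371 TPM in WT sham and 187 to 217 in WT TAC, without overlap. The 10 macrophage markers, of which 8 reached 1 TPM in WT sham and 9 in WT TAC, summed to 97.4 to 157 TPM and to 118 to 317 TPM. None of these markers was at 0 in all libraries of a group. The part of these values in the result was not tested, and in bulk tissue fewer cells of a type and less RNA per cell cannot be told apart.

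The promoters of the 4 genes that fell are shown with 4 others of the set, because TFEB and TFE3 activate many autophagy and lysosome genes through a DNA element built on the E-box CACGTG. The 4 others were picked because they hold CACGTG, so the contrast with the genes that fell comes from that choice. Each line gives 150 bases that end just before the RefSeq start site, on the gene's own strand, from the RefSeq promoter table of GRCm38.p6. Capitals mark CACGTG, or the longer TCACGTGA where it is complete.
Ulk1, chr5:110810082-110810231, minus strand: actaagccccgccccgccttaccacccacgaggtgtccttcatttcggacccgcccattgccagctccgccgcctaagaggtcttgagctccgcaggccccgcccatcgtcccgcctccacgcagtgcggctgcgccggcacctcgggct
Atg13, chr2:91710593-91710742, minus strand: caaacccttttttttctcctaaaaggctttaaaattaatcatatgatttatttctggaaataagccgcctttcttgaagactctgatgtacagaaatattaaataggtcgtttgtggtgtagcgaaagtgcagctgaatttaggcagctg
Atg9a, chr1:75192011-75192160, minus strand: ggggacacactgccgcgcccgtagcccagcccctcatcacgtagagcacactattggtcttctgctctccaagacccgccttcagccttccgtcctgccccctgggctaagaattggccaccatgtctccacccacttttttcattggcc
Atg4b, chr1:93754755-93754904, plus strand: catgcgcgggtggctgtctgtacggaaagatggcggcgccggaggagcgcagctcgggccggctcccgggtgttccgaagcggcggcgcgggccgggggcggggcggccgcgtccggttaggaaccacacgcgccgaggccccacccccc
Ctsd, chr7:142387828-142387977, minus strand: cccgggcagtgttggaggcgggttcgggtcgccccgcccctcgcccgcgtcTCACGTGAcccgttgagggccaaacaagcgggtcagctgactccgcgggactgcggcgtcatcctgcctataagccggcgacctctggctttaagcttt
Mcoln1, chr8:3500369-3500518, plus strand: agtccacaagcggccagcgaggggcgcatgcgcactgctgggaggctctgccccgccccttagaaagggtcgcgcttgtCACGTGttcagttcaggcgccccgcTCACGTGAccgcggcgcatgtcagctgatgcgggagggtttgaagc
Lamp1, chr8:13159011-13159160, plus strand: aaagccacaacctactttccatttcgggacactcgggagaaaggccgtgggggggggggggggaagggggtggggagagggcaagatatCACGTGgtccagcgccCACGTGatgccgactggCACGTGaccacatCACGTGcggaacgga
Atg3, chr16:45158679-45158828, plus strand: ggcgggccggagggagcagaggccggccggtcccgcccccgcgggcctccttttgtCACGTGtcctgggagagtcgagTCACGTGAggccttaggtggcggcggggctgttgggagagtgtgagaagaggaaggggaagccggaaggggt

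The 4 promoters differ in base composition. The Atg4b window was 78% GC with 24 CpG and the Ulk1 window 70% with 16, whereas the Atg9a window was 60% with 6 and the Atg13 window 35.3% with 3. The search covered the window from 250 bases before to 50 after the start, on both strands (these motifs read the same on both), and 28 of the 35 genes matched the table. CACGTG occurred in 9 of the 28 (32.1%): Atg14, Atg3, Atg5, Atg7, Lamp1, Mcoln1, Ctsd, Ctsl and Gaa. It occurred in 8.09% of all 27025 genes with a promoter entry and in 11.4% of the 9841 of them tested here. TCACGTGA, which contains it, occurred in Atg3, Mcoln1 and Ctsd, against 1.12% of all genes and 2.10% of those tested. The longer palindrome of the element, in which TCACGTGA is flanked by G and C, occurred in 0 of the 28, against 0.370% of all genes. Lamp1 held 4 copies of CACGTG within the 150 bases shown. None of the 4 genes that fell held a copy in the window searched, where 19 of the 28 genes held none. For Atg4b the RefSeq window lies inside the gene as given above, which starts at 93751500. The bases before that start were not searched.

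In WT TAC against WT sham, the 9 genes with the E-box had a median log2 difference of -0.23 and the 19 without it -0.38. Genes with the motif did not share a direction: Ctsd was at -0.57 and Ctsl at 0.36. After GC correction the medians were -0.04 and 0.01. No test was made of this split.

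The lipid kinase complex places phosphatidylinositol 3-phosphate on the forming membrane, and Wipi1 and Wipi2 encode proteins that bind this lipid. None of Becn1, Pik3c3, Atg14, Wipi1 and Wipi2 passed in WT hearts. These 5 genes all had log2 differences below 0 as deposited, from -0.39 for Becn1, the regulatory subunit Beclin 1, to -0.12 for Pik3c3. The smallest adjusted p was 0.185 (limma). They did not share a direction after GC correction, with Pik3c3 at 0.02 and Wipi1 at 0.07, nor after quantile normalization, with 0.08 and 0.03. As deposited, Wipi1 and Wipi2 were at -0.16 and -0.37. Besides Atg4b, the conjugation enzymes were spread about 0: Atg7, the E1-like enzyme, at -0.44, Atg16l1, which places the complex on membrane, at -0.05, and Atg12, Atg5 and Atg3 at 0.07, 0.08 and 0.22. None of these passed the test.

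The ATG8 genes had differences of both signs, and that of Map1lc3a turned with GC correction. Map1lc3a measured 126, 118, 88.0 and 96.2 TPM in WT sham and 72.7, 94.8, 71.9 and 104 in WT TAC. Map1lc3b, which encodes LC3B, a common marker of autophagosomes, measured 61.4, 88.3, 60.9 and 56.8 TPM in WT sham and 84.9, 94.7, 71.7 and 83.6 in WT TAC. Their log2 differences were -0.32 and 0.34, and in both genes the groups overlapped. After GC correction both were above 0, Map1lc3a at 0.16 (adjusted p 0.588) and Map1lc3b at 0.57 (0.0710, limma). Gabarap measured 74.2, 94.1, 63.7 and 52.1 TPM in WT sham and 88.2, 80.1, 68.7 and 92.1 in WT TAC, a log2 difference of 0.23. Gabarapl1 measured 28.4, 40.2, 34.8 and 31.6 TPM in WT sham and 23.3, 24.5, 18.7 and 28.5 in WT TAC, a log2 difference of -0.50 ± 0.17 (adjusted p 0.0988), and overlapped only through WT TAC 4, whose 28.5 TPM stood just above the 28.4 TPM of WT sham 1. None of the 4 passed the test.

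The 4 cargo receptor and mitophagy genes had log2 differences below 0 in the values as deposited, and none passed. Sqstm1 measured 136, 177, 181 and 169 TPM in WT sham and 97.4, 109, 121 and 113 TPM in WT TAC, with a log2 difference of -0.58 ± 0.16 (adjusted p 0.0554). Its groups did not overlap. Pink1 (-0.39) and Nbr1 (-0.38), a receptor related to p62, did not overlap either, while Optn (-0.52), a mitophagy receptor, did. The transcription factor genes Tfeb (-0.40) and Tfe3 (-0.07) had adjusted p-values of at least 0.357. After GC correction Sqstm1 was at -0.28 (adjusted p 0.326), and Pink1, Tfeb and Tfe3 turned to 0.03, 0.08 and 0.17. Tfe3 turned after quantile normalization too, to 0.14.

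Lysosomal genes went both ways. Ctsd, the aspartic protease cathepsin D, measured 157, 179, 159.7 and 130.2 TPM in WT sham and 88.2, 118, 98.7 and 117 in WT TAC, with a log2 difference of -0.57 ± 0.17 (adjusted p 0.0683). Gaa, which breaks down glycogen in the lysosome, measured 60.3, 49.1, 47.5 and 40.3 TPM in WT sham and 38.9, 35.2, 29.2 and 33.3 in WT TAC, with a difference of -0.51 ± 0.17 (adjusted p 0.0836). Both were lower in every TAC library than in every sham library, and both missed the threshold. GC correction brought Ctsd to -0.22 (adjusted p 0.370) and Gaa to -0.08 (adjusted p 0.753). The cysteine protease genes went otherwise: Ctsl measured 39.0, 45.3, 33.1 and 26.4 TPM in WT sham and 56.6, 48.6, 36.6 and 43.1 in WT TAC (log2 difference 0.36), and Ctsb 37.3, 41.3, 32.2 and 28.4 TPM in WT sham and 42.1, 34.9, 28.3 and 37.0 in WT TAC (0.03). Both genes overlapped between the groups.

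Of the membrane proteins, Lamp1, an abundant glycoprotein of the lysosomal membrane, measured 91.4, 106, 79.4 and 76.7 TPM in WT sham and 92.0, 97.9, 86.8 and 98.3 in WT TAC, a log2 difference of 0.09. Lamp2 measured 54.8, 64.5, 50.1 and 45.4 TPM in WT sham and 89.7, 64.4, 65.7 and 67.9 in WT TAC, a log2 difference of 0.41 ± 0.17 (adjusted p 0.162). Its highest value was in WT TAC 1, the library with the highest macrophage markers (317 TPM). Npc1, the cholesterol exporter, was at -0.27 and Mcoln1, the calcium channel TRPML1, at -0.43. For fusion, Rab7 was at 0.04 and Vps18 at -0.38. After GC correction Vps18 was at 0.01, and Lamp1 and Lamp2 were both at 0.33. In all, 9 of the 35 genes (25.7%) lay lower in WT TAC without overlap, where 15.3% of all genes tested did, and 0 lay higher, where 2.11% did.

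**Figure D3:**
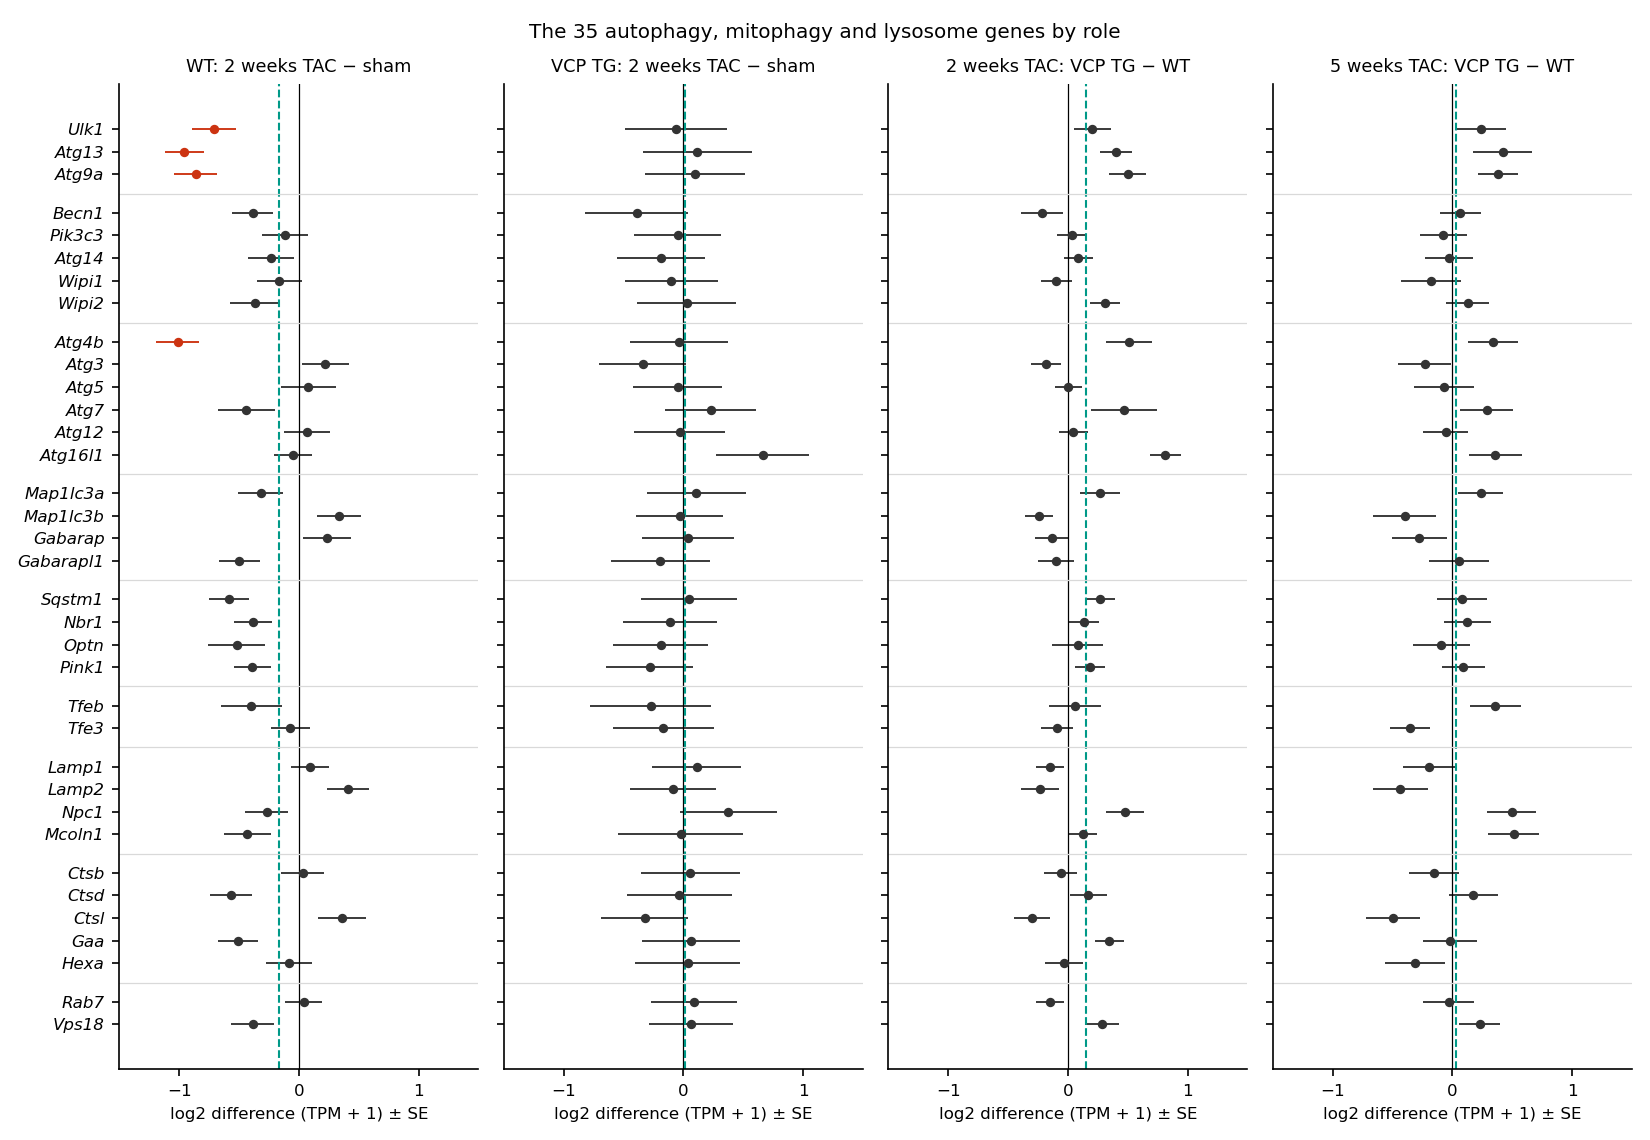
Log2 difference of TPM + 1 (horizontal axis) of each of the 35 genes, grouped by role, in 4 comparisons; points are estimates, bars ± SE, red marks genes past the threshold, and the dashed line is the median of all genes tested. Red appears in the first panel alone, for Ulk1, Atg13, Atg9a and Atg4b, and the bars are widest in the comparison that holds VCP TG sham.

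Beyond the 35 genes, 7 lists of further genes of these pathways held 163 names, of which 158 were tested in WT hearts. In WT TAC 1 rose and 3 fell, beside 0.722% and 6.31% of all genes tested. None of the 25 further genes of autophagosome formation passed. Foxo4, a transcription factor of the FoxO family, went from 8.19 ± 1.02 to 3.99 ± 0.46 TPM (log2 difference -0.88, adjusted p 0.0163). Atp6v0c, a membrane subunit of the proton pump that acidifies lysosomes, went from 59.2 ± 7.05 to 38.3 ± 5.43 TPM (-0.62, 0.0472). Ykt6, a SNARE of autophagosome fusion, went from 10.5 ± 1.26 to 6.61 ± 0.45 TPM (-0.59, 0.0412). Lamtor5, a subunit of the Ragulator complex that anchors nutrient sensing to the lysosome, rose from 21.5 ± 7.52 to 38.2 ± 4.75 TPM (0.85, 0.0468). Errors are SD over 4 libraries. The median over the lists was -0.15, beside -0.16 for all genes. After GC correction 3 of these genes rose and 0 fell, with Lamtor5 among them. After quantile normalization 7 rose and 2 fell, and after rescaling to nuclear protein-coding genes 6 rose and 12 fell. The medians of the lists were then 0.0034, 0.020 and -0.138, beside -0.0041, -0.0040 and -0.139 for all genes. These counts have no share of all genes beside them here and are not read as a shift of these pathways. With all groups fitted together none passed. In the other 6 comparisons no gene of these lists passed on the values as deposited.

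Between VCP TG sham and WT sham, 0 of the 35 genes passed, where 0.0144% of all 13901 genes did, and 0 had an unadjusted p under 0.05 in limma. The spread of the VCP TG sham libraries limits this comparison: the median SD of the 35 genes on the log2 scale was 0.63 there, beside 0.26 in WT sham and 0.17 in WT TAC. Atg13 measured 21.8, 19.0, 36.4 and 6.33 TPM in VCP TG sham, Ulk1 18.2, 16.3, 17.5 and 4.99, Atg9a 11.9, 8.94, 10.4 and 3.30 and Atg4b 9.28, 8.67, 18.0 and 5.57. VCP TG sham 4 was lowest in all 4 genes and was the lowest of the 15 libraries of the table for 26 of the 35. Its summed level of the 35 genes was 776 TPM, and its mitochondrially encoded share was 72.9%. VCP TG sham 3 was highest for Atg13 and Atg4b and had the lowest mitochondrial share, 27.9%. VCP TG sham 3 and VCP TG sham 4 were also the libraries of this group treated as rich in atrial transcripts. The log2 differences of the 4 genes lay between -0.67 and -0.45, with standard errors of 0.38 to 0.40. They rested on single libraries: without VCP TG sham 4 they were -0.04 for Ulk1, -0.11 for Atg9a, -0.22 for Atg13 and -0.24 for Atg4b, and without VCP TG sham 3 Atg13 was at -1.001 and Atg4b at -0.75. No gene of the 35 was separated between these groups without overlap, where 0.396% of all genes lay higher and 0.453% lower.

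In VCP TG hearts, TAC against sham gave 0 calls among the 35 genes, where 0.364% of all 14554 genes passed, 0.35% as higher and 0.0137% as lower. None had an unadjusted p under 0.05 (limma), and in none were the groups without overlap, where 3.06% of all genes lay higher and 0.68% lower. The log2 difference was 0.12 for Atg13, 0.10 for Atg9a, -0.04 for Atg4b and -0.06 for Ulk1, with standard errors of about 0.4. No sign in this set of 4 can be read, since each turned under at least 1 other treatment of the data. The TAC response in VCP TG minus that in WT was 1.07 ± 0.50 for Atg13, 0.97 ± 0.42 for Atg4b, 0.96 ± 0.43 for Atg9a and 0.65 for Ulk1. With single libraries left out they ran from 0.62 to 1.40, 0.74 to 1.26, 0.61 to 1.14 and 0.25 to 0.81, in each gene lowest without VCP TG sham 4. These were the tests of whether the genotypes respond differently. With adjustment over 15540 genes the smallest p among the 35 was 0.872 (limma), 3 of the 35 had an unadjusted p under 0.05, and 0.00644% of all genes passed. The fall in WT hearts is therefore not shown to differ from the response in VCP TG hearts.

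Between VCP TG and WT at 2 weeks of TAC, 0 of the 35 genes passed, where 0.0565% of all 14162 genes did, and 7 had an unadjusted p under 0.05. The WT TAC libraries are the same as in the comparison with WT sham, so the differences of a gene in both comparisons are not independent. The largest difference was in Atg16l1, which encodes the subunit that brings the conjugation complex to membranes. It measured 14.7, 14.4, 17.3 and 14.1 TPM in WT TAC and 31.5, 23.3 and 27.4 TPM in VCP TG TAC. All 3 VCP TG values lay above all 4 WT values, and the log2 difference was 0.81 ± 0.13 (adjusted p 0.0533). The groups overlapped in sham hearts, with 13.8, 16.7, 18.9 and 13.5 TPM in WT and 18.3, 12.5, 28.5 and 12.2 in VCP TG. Against the median of all genes, 0.15 here, Atg16l1 stood 0.66 higher, and after rescaling to nuclear protein-coding genes its difference was 0.45 (adjusted p 0.120).

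Npc1 measured 16.0, 23.6, 18.9 and 20.5 TPM in WT TAC and 25.6, 24.5 and 33.6 in VCP TG TAC (log2 difference 0.48 ± 0.16, adjusted p 0.128). Gaa measured 38.9, 35.2, 29.2 and 33.3 TPM in WT TAC and 40.9, 45.1 and 44.6 in VCP TG TAC (0.35 ± 0.12, adjusted p 0.132). Both genes were higher in every VCP TG library. So were Atg9a (0.50), Atg13 (0.40), Sqstm1 (0.27) and Vps18 (0.28), which makes 7 of the 35 genes (20%) without overlap. The background was 19.4% of all genes tested, so this share is near that of any gene, and 0 lay lower, where 2.97% did.

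The values of VCP TG TAC also differed from WT TAC in composition. The share of mitochondrially encoded genes was 40.2% to 51.6% in VCP TG TAC and 55.5% to 60.9% in WT TAC. Genes at 1 TPM or more numbered 13891 to 16813 and 12868 to 13414. The mean level of 1346 olfactory and vomeronasal receptor genes, which heart is not known for, was 0.311 to 0.841 TPM and 0.107 to 0.1996 TPM. None of these 3 measures overlapped between the groups, and their part in the result was not tested. Rescaled to nuclear protein-coding genes, the median of the 35 genes went from 0.08 to -0.31 and that of all genes from 0.15 to -0.15, Atg13, Npc1, Atg9a and Atg4b came to 0.03, 0.10, 0.17 and 0.17, and Gaa and Ulk1 turned to -0.04 and -0.17. The 35 genes had no shared direction here: 22 were above 0 as deposited, 14 after GC correction, 15 after quantile normalization and 7 after the rescaling, where 3 genes of the further lists passed as lower. Without the libraries rich in atrial transcripts (WT TAC 1 and VCP TG TAC 2), 4 of the 35 passed as higher: Atg16l1 (0.91), Atg7 (0.87), Atg4b (0.78) and Atg13 (0.56). Without VCP TG TAC 2 alone there were 3, Atg16l1, Atg4b and Atg13. The number of all genes called in this comparison moved too, from 0 to 777 with single libraries left out, beside 8 in the main fit. For the fit without both WT TAC 1 and VCP TG TAC 2 that number is not given here. The 4 calls there have no background and are not read as particular to these genes.

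At 5 weeks of TAC, 0 of the 35 genes differed between the genotypes past the threshold, where 0.00715% of all 13986 genes did. The smallest adjusted p among them was 0.904 (limma), and 3 had an unadjusted p under 0.05. Ctsl measured 44.9, 39.1, 26.0 and 28.6 TPM in WT and 25.2, 26.0 and 20.1 in VCP TG, a log2 difference of -0.50 ± 0.23. The groups touched: the lowest WT value and the highest VCP TG value both round to 26.0 TPM. Npc1 measured 16.3, 17.4, 16.9 and 11.6 TPM in WT and 26.0, 22.2 and 18.6 in VCP TG, a difference of 0.49 ± 0.20. It lay higher in every VCP TG library at 5 weeks as at 2 weeks. Tfe3 measured 7.11, 8.83, 8.14 and 8.04 TPM in WT and 5.89, 5.71 and 6.62 in VCP TG, a difference of -0.35 ± 0.17, with all VCP TG values below all WT values.

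Atg9a (0.38) and Vps18 (0.23) lay higher without overlap, which with Npc1 makes 3 of the 35 genes (8.57%), where 3.4% of all genes did. Ctsl and Tfe3 make 2 lower (5.71%), where 1.74% did. The library labelled VCP TG 5 weeks TAC 3 had a Vcp level of 39.1 TPM and those labelled WT 5 weeks TAC 2 and 3 had 123 and 107, so Vcp goes against the genotype label in 3 of the 7 libraries at 5 weeks. Without these 3 libraries 0 of the 35 genes passed as well. That fit holds only WT 5 weeks TAC 1 and 4 and VCP TG 5 weeks TAC 1 and 2. With so few libraries a count of 0 says little. Ulk1, Atg13 and Atg4b were at 0.24, 0.42 and 0.34, and their groups overlapped. The genotype difference at 5 weeks minus that at 2 weeks, each taken within its table, gave 0 calls among 15539 genes and so a background of 0%, with 682 genes and 0 of the 35 at an unadjusted p under 0.05 (limma). Its smallest adjusted p among the 35 was 0.956.

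**Figure D4:**
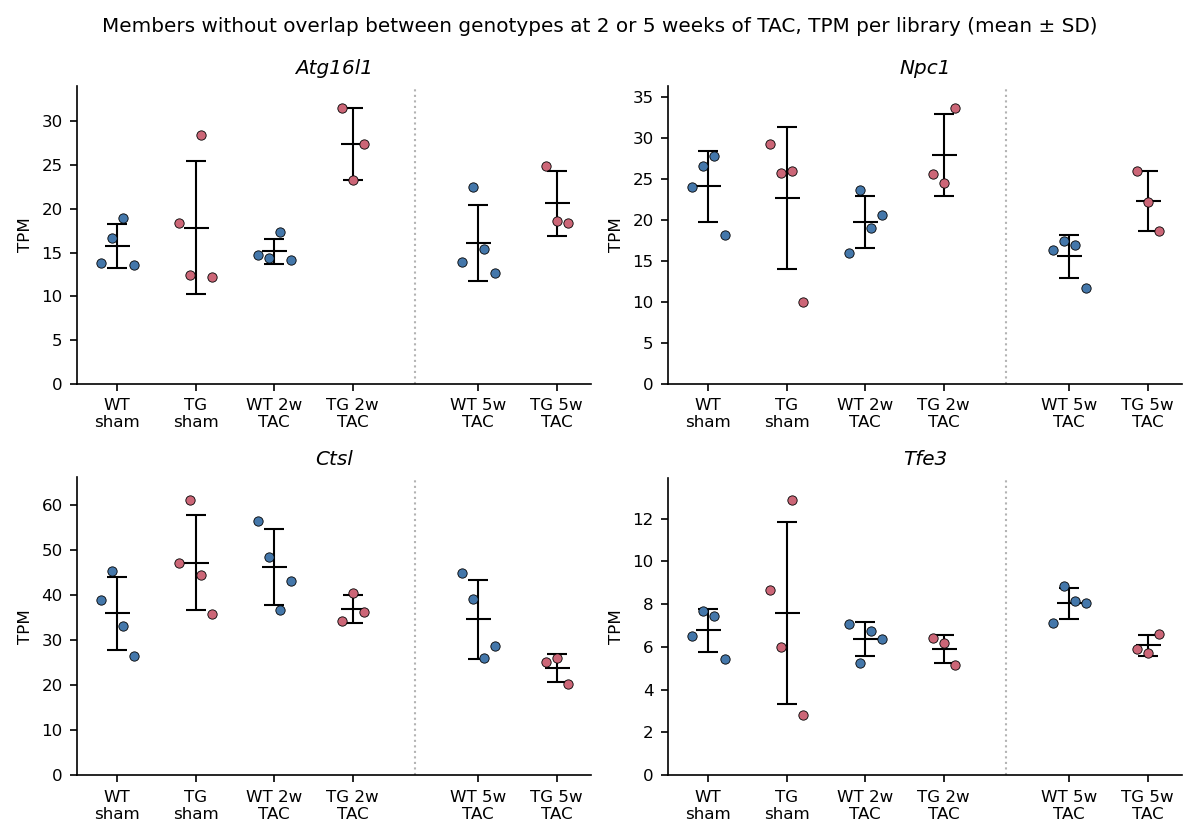
TPM (vertical axis, linear) of Atg16l1, Npc1, Ctsl and Tfe3 in each library of the 6 groups, with the 2-week table left and the 5-week table right of the dotted line; points are libraries and bars mean ± SD (n = 4, or 3 for VCP TG under TAC). VCP TG lies above WT without overlap for Atg16l1 at 2 weeks and for Npc1 at both times, and below WT for Ctsl and Tfe3 at 5 weeks.

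Shares within a gene family do not depend on how a library is scaled. Of the summed TPM of the 4 ATG8 genes, Map1lc3a took 38.6% ± 4.13 (SD, n = 4) in WT sham, 31.0% ± 2.88 in WT TAC and 38.1% ± 1.47 (n = 3) in VCP TG TAC at 2 weeks. The VCP TG TAC shares, 36.9% to 39.7%, lay above the WT TAC shares, 27.0% to 33.7%. At 5 weeks its share was 42.9% to 45.2% in VCP TG and 30.3% to 42.1% in WT, again without overlap. Gabarap took the opposite place at 5 weeks, with 23.5% to 27.3% in VCP TG and 27.9% to 31.6% in WT. Map1lc3b took 21.2% to 25.9% in WT sham and 27.1% to 32.2% in WT TAC, without overlap, and Gabarapl1 9.82% to 14.1% and 8.08% to 9.24%. Map1lc3a has the highest GC content of the 4 transcripts (63.1%, beside 50.8% to 52.7%), and the part of GC content in these shares was not tested.

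**Figure D5:**
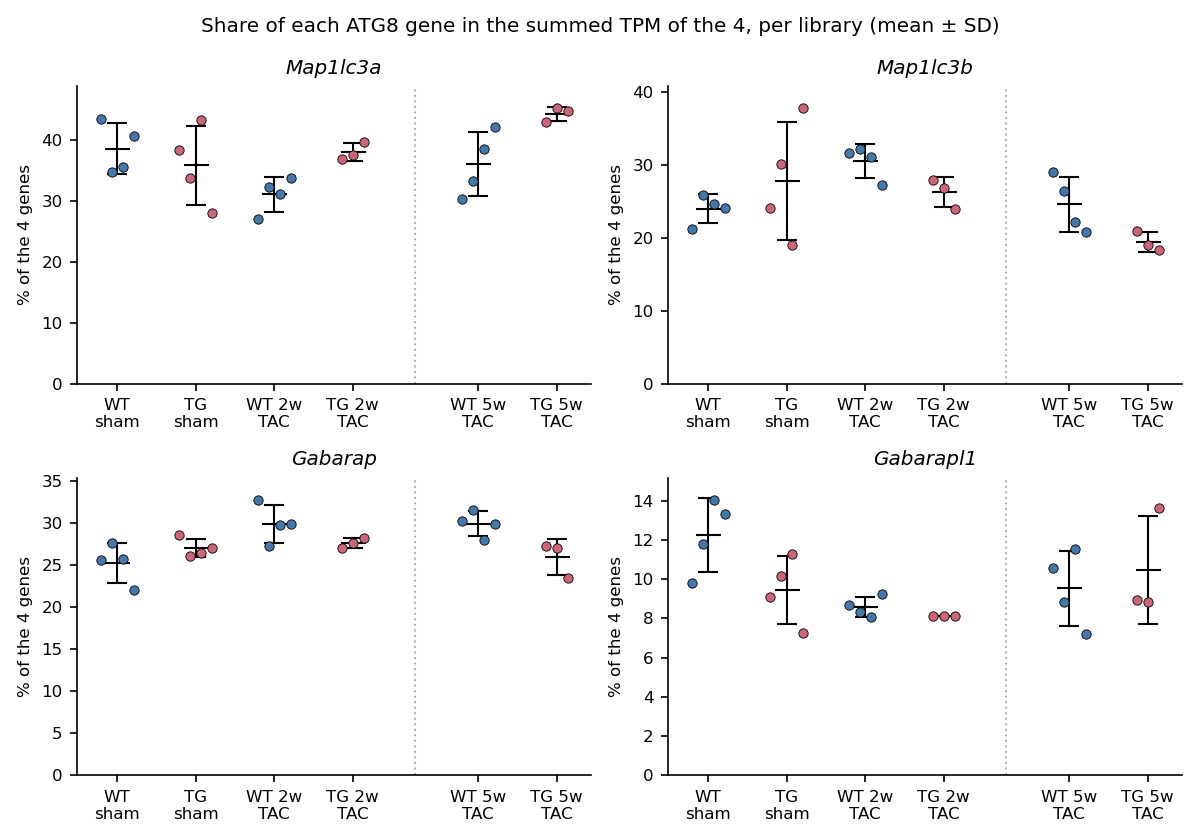
Share in percent (vertical axis, from 0) of Map1lc3a, Map1lc3b, Gabarap and Gabarapl1 in the summed TPM of these 4 genes, in each library of the 6 groups; points are libraries, bars mean ± SD (n = 4, or 3 for VCP TG under TAC), and the dotted line separates the tables. Map1lc3a takes a larger share in VCP TG than in WT at 2 weeks and at 5 weeks of TAC, without overlap.

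The lysosomal proteases showed a similar exchange. Of the summed TPM of Ctsb, Ctsd and Ctsl, Ctsd took 67.3% to 71.0% in WT sham and 47.2% to 60.3% in WT TAC, and Ctsl 14.3% to 17.1% and 21.8% to 30.3%. At 5 weeks Ctsd took 61.3% to 70.2% in WT and 71.7% to 74.4% in VCP TG, and Ctsl 13.7% to 20.8% and 11.2% to 12.4%. None of these 4 pairs of ranges overlapped. Between the genotypes at 2 weeks of TAC they did: Ctsd took 57.9% to 65.9% in VCP TG and Ctsl 17.2% to 23.2%, each reaching into the WT range. Lamp1 took 61.3% to 62.8% of the summed TPM of Lamp1 and Lamp2 in WT sham and 50.6% to 60.3% in WT TAC. Ctsd (55.9%) and Lamp1 (51.6%) have transcripts of higher GC content than Ctsl (44.3%) and Lamp2 (38.7%). After GC correction the log2 differences between WT TAC and WT sham were 0.33 for both Lamp1 and Lamp2, beside 0.09 and 0.41 as deposited. Those of Ctsd and Ctsl were then -0.22 and 0.41, beside -0.57 and 0.36. The shares were not computed on corrected values. At 5 weeks the Lamp1 shares overlapped, at 58.6% to 65.5% in WT and 64.1% to 68.3% in VCP TG, while in VCP TG sham they were 47.1% to 58.4%, below all of WT sham. Among the cargo receptors Sqstm1, Nbr1 and Optn, the shares overlapped in all 5 comparisons of 2 groups. Of the 12 genes of these families, 8 had shares without overlap in WT TAC against WT sham, 4 between the genotypes at 5 weeks, 2 between the genotypes in sham hearts, and 1 each between the genotypes at 2 weeks and in VCP TG TAC against VCP TG sham. Shares of a family sum to a fixed total, so its genes are not independent, and in the pair of Lamp1 and Lamp2 each share fixes the other. The shares were compared by range, with no test, and no background of other families was computed.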

How the data were processed

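Per the labels' protocols, RNA came from left ventricular tissue (Qiagen miRNeasy) and libraries from a stranded mRNA kit (Illumina TruSeq). Expression was deposited by the authors as TPM in 2 tables of 30735 Ensembl genes, in which every library sums to 1000000. Per the submitters' processing notes, the tools named were kallisto 0.43.1, STAR 2.5.4b, Trimmomatic 0.35 and DESeq2, with the build GRCm38. The sources used here do not give which tool made the tables. Gene names, GC content and transcript length (longest transcript) came from GENCODE M21 on GRCm38. Promoters came from RefSeq, GRCm38.p6.

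Each comparison between 2 groups was fitted on those groups alone in R 4.3.3 with limma 3.58.1, using log2(TPM + 1), a variance trend and robust moderation. Differences of differences were fitted on all their groups. A gene entered a fit if 3 or more of its libraries reached 1 TPM. Tests were two-sided, p-values were adjusted by Benjamini-Hochberg, and the threshold was 0.05. A difference on this scale understates the change of low genes. Each difference was taken within 1 table, since table and time point cannot be told apart. The script was tested on simulated data. GC correction subtracted from each library its lowess trend (span 0.3) on transcript GC content, which was known for 97.6% of genes in the tables.

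The 35 genes, the further lists and the tests were chosen with earlier results of these data known. The libraries treated as rich in atrial transcripts, or as having a Vcp level against the label, were taken from that earlier work. Among the latter was VCP TG sham 1, whose Vcp level lay above every WT sham library. Of the further lists, 1 gene is not reported here and is left out of their counts and medians. Values are printed for each library for genes past the threshold in any comparison, for up to 3 others per comparison with the largest difference among those without overlap, and for the ATG8 genes, Lamp1, Lamp2, Ctsb, Ctsd and Ctsl. Alternatives were another pseudocount (0.1), no filter on low values, no variance trend, quantile normalization, rescaling to nuclear protein-coding genes, GC correction, a replicate block, all groups fitted together, and leaving out libraries. Giving the directions of all 35 genes and the further lists under the scaling and GC alternatives was chosen after seeing the data.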

Additional observations from a re-analysis of the deposited data

Results flagged for a closer look

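In 9 of 140 checks of a gene in a group of 4 libraries, a single library stood far from the other 3, with a gap to its nearest neighbour above the 95% critical value of Dixon's test. Chance alone gives about 7 such cases in 140. In WT sham 2, Map1lc3b was at 88.3 TPM, where the other libraries of its group lay between 56.8 and 61.4, and Optn was at 94.3, where the others lay between 55.9 and 58.5. In VCP TG sham 4, Ulk1 was at 4.99 TPM (others 16.3 to 18.2), Atg12 at 4.19 (others 8.68 to 9.42) and Ctsb at 14.4 (others 39.8 to 44.3). In the library labelled WT 2 weeks TAC 1, Atg3 was at 12.5 TPM (others 9.46 to 9.71) and Lamp2 at 89.7 (others 64.4 to 67.9). In WT 5 weeks TAC 1, Mcoln1 was at 11.4 TPM (others 7.04 to 7.76), and in WT 5 weeks TAC 2, Ctsd was at 118 (others 131.7 to 133).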

How the results depend on the processing

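For the number of the 35 genes past the threshold, 129 of 140 alternatives over the 7 comparisons stayed within 1.5 times the value given. Most of these were counts of 0 that stayed at 0. In WT TAC against WT sham, the comparison with calls, 10 of 19 alternatives stayed and 9 moved. Ulk1 lost its call in 15 of these 19 alternatives, Atg9a in 7, and Atg13 and Atg4b in 5 each. In WT TAC against WT sham (4 genes), there were 2 with no filter on low values, 9 after rescaling to nuclear protein-coding genes, 0 after GC correction, 0 with the replicate block on GC-corrected values, 0 with all groups fitted together, and 0 to 10 when single libraries were left out. All genes called in these ranged from 49 to 2148 when single libraries were left out, from 964. With the replicate block alone Ulk1 was lost and 3 remained. Same-numbered libraries correlated at -0.24 to 0.27 in their deviations from the group means, not all above 0.1 in any comparison, so the numbers were not taken as pairs. In VCP TG against WT at 2 weeks of TAC (0 genes), there were 4 without the libraries rich in atrial transcripts and 0 to 3 when single libraries were left out. The share of all genes called is not given here for these 4, nor for the 9 after rescaling. The other 5 comparisons gave 0 under each alternative run.

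Of 668 alternative values of single genes, 604 kept direction and side of the threshold and 19 turned, each of these in a difference that had not passed. In VCP TG TAC against VCP TG sham, Atg13 turned to -0.18 after rescaling to nuclear protein-coding genes, to -0.34 with the replicate block and to -0.069 with the block on GC-corrected values. Atg9a turned to -0.18, -0.25 and, without the atrial-rich libraries, -0.15. Atg4b turned to 0.26 without the atrial-rich libraries, which here were VCP TG sham 3, VCP TG sham 4 and VCP TG 2 weeks TAC 2. Ulk1 turned to 0.00698 after GC correction and to 0.10 without VCP TG sham 1, left out for its Vcp level. The Vcp level of VCP TG sham 1 was 89.1 TPM, above the highest of WT sham, 82.6 TPM. VCP TG sham 4, at 73.5 TPM of Vcp, was kept in that fit. With single libraries left out, these differences ran from -0.34 to 0.45 for Atg13, -0.25 to 0.28 for Atg9a, -0.27 to 0.24 for Atg4b and -0.46 to 0.10 for Ulk1. In VCP TG against WT at 2 weeks of TAC, Gaa and Ulk1 turned to -0.0397 and -0.17 after rescaling to nuclear protein-coding genes. The cause of these changes was not tested, and TPM give no depth from which counting error could be set.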
